A study of Ovis aries with 6 samples.

Results

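The genes described here encode the AP-1 factors and small MAF factors named FOS, FOSB, FOSL1, FOSL2, JUN, JUNB, JUND, ATF3, MAFF and MAFK, chosen by gene symbol in the table of read counts. Of the 10 symbols, 8 matched a gene identifier directly. JUN was read from the row listed as C-JUN, which the table pairs with the symbol JUN, so that 9 of the 23144 genes in the table were analysed. MAFK was not analysed here. The proteins belong to the bZIP class, which bind DNA as dimers held together by a leucine zipper. FOS proteins need a JUN partner to bind AP-1 sites, JUN proteins can also pair with each other, and ATF3 pairs with JUN proteins and can repress transcription. Small MAF proteins lack an activation domain and bind antioxidant response elements with cap-n-collar partners such as NFE2L2, or with BACH1, which represses. In skeletal muscle, FOS, JUN and ATF3 transcripts are known as immediate-early messages that appear within minutes of contraction, injury or stress and decay quickly.

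The study compared the longissimus dorsi muscle of Qianhua Mutton Merino (QHMM) sheep, a breed developed for meat and wool, with that of Small Tail Han (STH) sheep, a local breed, to look for expression differences related to muscle growth. Each breed gave 3 libraries, with 1 library per animal, from 1-year-old females kept in a shared environment, with a fast before the live weight was taken ahead of slaughter. Poly(A) RNA was read on an Ion Proton instrument. In the order of replicates 1, 2 and 3, which holds for every set of library values below, the reads counted on genes numbered 14334544, 12980936 and 12382244 in the QHMM libraries and 13107349, 10982191 and 13546561 in the STH libraries. The muscle label held against its markers: of 8 skeletal muscle fibre genes, 7 had a row, ACTA1 was the most abundant with a mean of 54473 RPKM (reads scaled by gene length and by library total), and TNNT3 was listed at 0. The samples are bulk tissue, in which fewer cells of a type and less RNA per cell cannot be told apart.

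QHMM replicate 3 stood apart from the other libraries for these genes. It had the lowest normalized count of the 6 libraries for 9 of 9 members, while 16.8% of all 12506 tested genes had their lowest value there. Normalized counts are counts scaled by edgeR's TMM factors to a common library size. The reads of the 9 members together made up 0.5% of the total in QHMM replicate 1 (95% Wilson interval 0.496 to 0.504), 0.17% in QHMM replicate 2 (0.168 to 0.172) and 0.01% in QHMM replicate 3 (0.0095 to 0.0106). In STH they made up 0.454% in replicate 1 (0.45 to 0.457), 0.144% in replicate 2 (0.141 to 0.146) and 0.186% in replicate 3 (0.183 to 0.188). These intervals cover counting error only. The share thus varied many times over between animals of 1 breed, and QHMM replicate 1 lay near STH replicate 1. On a log2(normalized count + 1) scale, QHMM replicate 3 was more than 4-fold below the mean of QHMM replicates 1 and 2 for 7 of 9 members, against 0.880% of all tested genes. The exceptions were FOSL1 and FOSL2. That 4-fold limit was chosen after the values were seen. QHMM replicate 1 was the highest QHMM library, and replicate 3 the lowest, for 9 of 9 members, an order that 15.3% of tested genes had. Among STH libraries, replicate 1 was the highest for 6 members and replicate 2 the lowest for 7. Of all 6 libraries, STH replicate 2 was the lowest for 21.2% of tested genes and the highest for 22.8%. Both were the largest shares of any library. The total count, the TMM factor of 1.03 and the 15562 genes detected in QHMM replicate 3 lay within the range of the other libraries.

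**Figure D1:**
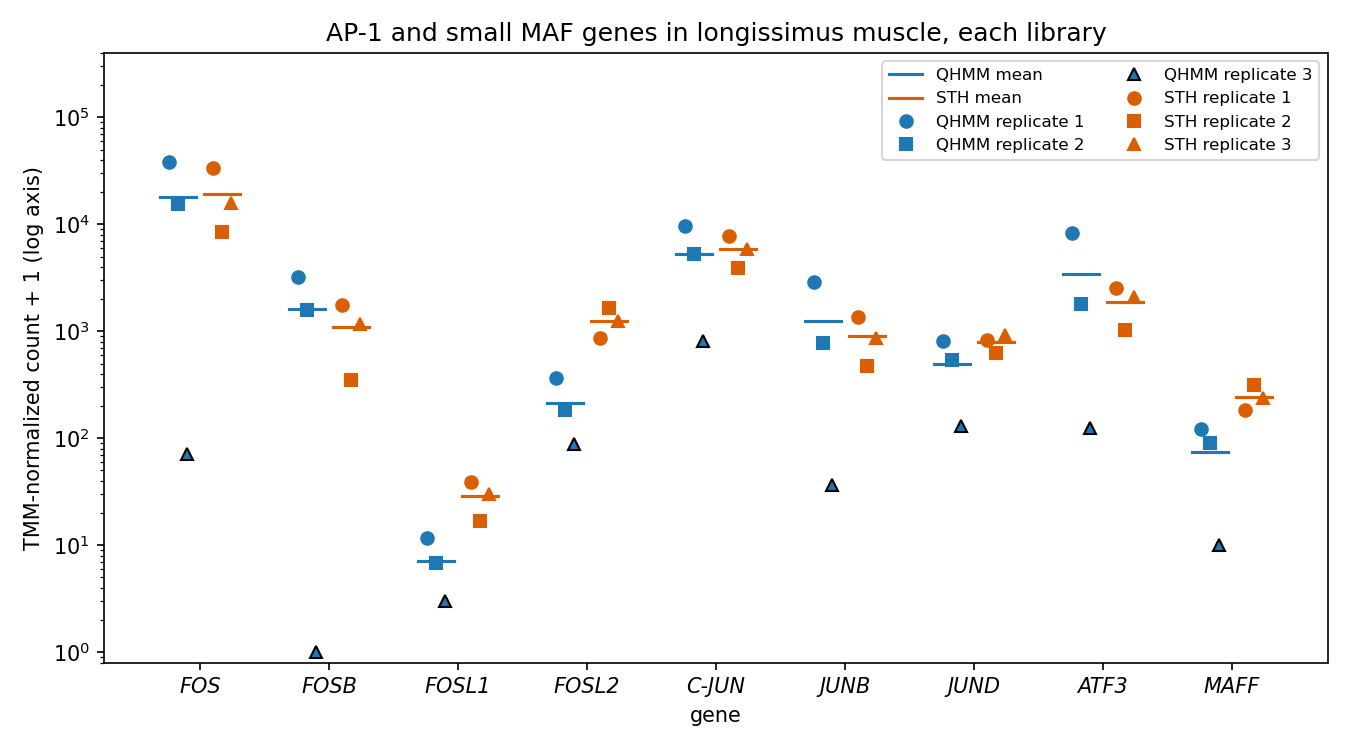
TMM-normalized counts plus 1 (log axis) of the 9 genes in each of the 6 libraries, with QHMM in blue and STH in orange, a marker shape for each replicate, QHMM replicate 3 outlined in black, and horizontal lines at the breed means. QHMM replicate 3 is the lowest point for 9 of 9 genes, and the breeds do not overlap for FOSL1, FOSL2 and MAFF.

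Between the breeds, 1 of the 9 tested members, FOSL2, was called higher in STH, where 1.62% of all tested genes were called higher. None was called lower (0 of 9), where 1.83% of all tested genes were. A call required an edgeR FDR below 0.05 and a change of more than 1.5-fold in either direction. At an unadjusted p below 0.05 there were 3 members higher in STH and 0 lower, where 9.43% and 9.72% of all tested genes were. DESeq2 called 2 members higher and 0 lower (3.34% and 4.44% of all genes), and limma on log2(RPKM + 1) called 1 higher and 0 lower (1.90% and 1.20%). All 3 STH libraries lay above all 3 QHMM libraries for 3 members, FOSL1, FOSL2 and MAFF, where 13.0% of all tested genes had this arrangement, and the breeds overlapped for the other 6. The log2 fold change of STH minus QHMM was positive for 6 members and negative for 3, with a median of 0.16 against 0.02 over all tested genes, and the signs of FOS, FOSB, C-JUN, JUNB and ATF3 changed with the library left out. Without QHMM replicate 3 it was positive for 4 and negative for 5, with a median of -0.35 against 0.03. In that fit FOSL2 was still the 1 member called higher (background 0.538% of tested genes), and 0 were called lower (background 0.632%).

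FOSL2, a late-acting FOS protein without the strong activation domain of FOS, carried the called difference. Its normalized count was 364, 181 and 88.3 in the QHMM libraries and 861, 1663 and 1245 in the STH libraries. Every STH animal was above every QHMM animal, with STH replicate 2 the highest library and QHMM replicate 3 the lowest. The mean was 211 ± 140 in QHMM and 1256 ± 401 in STH (SD, n = 3 each). The fitted difference was 5.92-fold, with a log2 fold change of 2.57 (SE 0.45, edgeR FDR 0.0174). Leaving out any single library kept the log2 fold change between 2.20 and 3.20. The call was lost without QHMM replicate 2 (log2 fold change 2.47, edgeR FDR 0.0619) and kept without QHMM replicate 3 (2.20, edgeR FDR 0.0353), within a range of 7.38e-08 to 0.0619 over the settings tried.

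FOSL1, which also lacks that domain and is itself a known AP-1 target, was scarce in this tissue. Its raw counts were 12, 5 and 2 in the QHMM libraries and 46, 15 and 26 in the STH libraries. The normalized counts were 10.7, 5.85 and 2.03 in the QHMM libraries and 38, 16 and 29.1 in the STH libraries. The breeds did not overlap, although STH replicate 2 came close to QHMM replicate 1. Its log2 fold change was 2.12 (SE 0.59), and the gene was not called (edgeR FDR 0.0779). It ran from 1.71 without QHMM replicate 3 to 2.79 without QHMM replicate 1 when single libraries were left out, and was 1.24 in limma on log2(RPKM + 1). DESeq2 called it (FDR 0.0243), as did edgeR without a filter on low counts (FDR 0.0424), within a range of 0.0243 to 0.196 over the settings tried.

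FOS, the founding partner of JUN in AP-1, had the highest mean normalized count of the group and a wide spread. Its normalized count was 38560, 15556 and 70 in the QHMM libraries. In the STH libraries it was 33662, 8481 and 15749. QHMM replicate 3 was 386-fold below the mean of the other QHMM libraries, and the remaining QHMM libraries lay within or just above the STH range. The log2 fold change was 0.10 (SE 1.20, edgeR FDR 0.976). It was -0.49 without QHMM replicate 3 and -0.59 without STH replicate 1, but 1.28 without QHMM replicate 1, 1.03 with the replicate number as a block and 2.21 in limma on log2(RPKM + 1). The direction of FOS thus depended on single animals.

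FOSB, a FOS relative induced by the same stimuli, had normalized counts of 3246, 1575 and 0 in the QHMM libraries. In the STH libraries they were 1760, 349 and 1162. No FOSB read was counted in QHMM replicate 3, and against a floor of 3 counts this places the library at least 792-fold below the mean of QHMM replicates 1 and 2. The STH libraries fell between the QHMM extremes. The log2 fold change was -0.56 (SE 1.23, edgeR FDR 0.852), and -1.14 without QHMM replicate 3, but 0.45 without QHMM replicate 1 and 1.35 in limma on log2(RPKM + 1).

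Within the JUN family, C-JUN had normalized counts of 9700, 5266 and 804 in the QHMM libraries and 7840, 3924 and 5862 in the STH libraries. C-JUN is in general the strongest activator of the JUN proteins. QHMM replicate 3 was 9.31-fold below the mean of the other QHMM libraries, and the other 5 libraries of C-JUN were interleaved between breeds. The log2 fold change was 0.16 (SE 0.64, edgeR FDR 0.923) with all libraries, -0.35 without QHMM replicate 3 and -0.12 without STH replicate 1, but 0.93 without QHMM replicate 1 and 0.82 in limma on log2(RPKM + 1).

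JUNB, which can damp C-JUN activity and is known for a role in keeping muscle mass, had normalized counts of 2895, 782 and 35.5 in the QHMM libraries. In the STH libraries JUNB had 1363, 468 and 866. The highest and the lowest JUNB values were both in QHMM, 81.5-fold apart, with the STH libraries between them. Its log2 fold change was -0.46 (SE 0.95, edgeR FDR 0.839), and -1.03 without QHMM replicate 3, but 1.12 without QHMM replicate 1 and 0.90 in limma on log2(RPKM + 1).

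JUND, the JUN protein present most steadily in resting cells, varied 6.23-fold among the QHMM libraries. Its normalized count was 810, 535 and 130 in the QHMM libraries and 829, 621 and 920 in the STH libraries. QHMM replicate 3 was 5.17-fold below the mean of the other QHMM libraries, while the STH libraries differed by 1.48-fold at most. The breeds overlapped. STH minus QHMM gave a log2 fold change of 0.68 (SE 0.49, edgeR FDR 0.491). It was 0.23 without QHMM replicate 3, but 1.23 without QHMM replicate 1 and 1.13 in limma on log2(RPKM + 1).

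ATF3, a stress-induced factor, had normalized counts of 8286, 1819 and 124 in the QHMM libraries and 2540, 1022 and 2098 in the STH libraries. QHMM replicate 1 alone exceeded every STH library, and QHMM replicate 3 was below all of them. The log2 fold change of ATF3 was -0.85 (SE 0.95, edgeR FDR 0.675), and -1.42 without QHMM replicate 3, but 0.94 without QHMM replicate 1 and 0.56 in limma on log2(RPKM + 1).

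MAFF, the small MAF analysed, had RPKM values of 24.5, 15.2 and 1.86 in the QHMM libraries and of 43, 67.9 and 40.1 in the STH libraries. All STH libraries were higher than all QHMM libraries, and the QHMM libraries spread more widely than the STH libraries, whose normalized counts differed by 1.71-fold at most. The log2 fold change of MAFF was 1.71 (SE 0.61) with all libraries, and the gene was not called (edgeR FDR 0.155, between 0.0514 and 0.353 over the settings tried). It was 1.19 (SE 0.32, edgeR FDR 0.115) without QHMM replicate 3, whose normalized count was 11.6-fold below the mean of the other QHMM libraries. The paper did list MAFF as differentially expressed and higher in STH, by the EBSeq algorithm, which was not run here. MAFF and FOSL2 were the 2 members highest in STH replicate 2, the library in which the other 7 had their lowest STH value. That library also held the highest value of the 6 libraries for 22.8% of all tested genes.

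**Figure D2:**
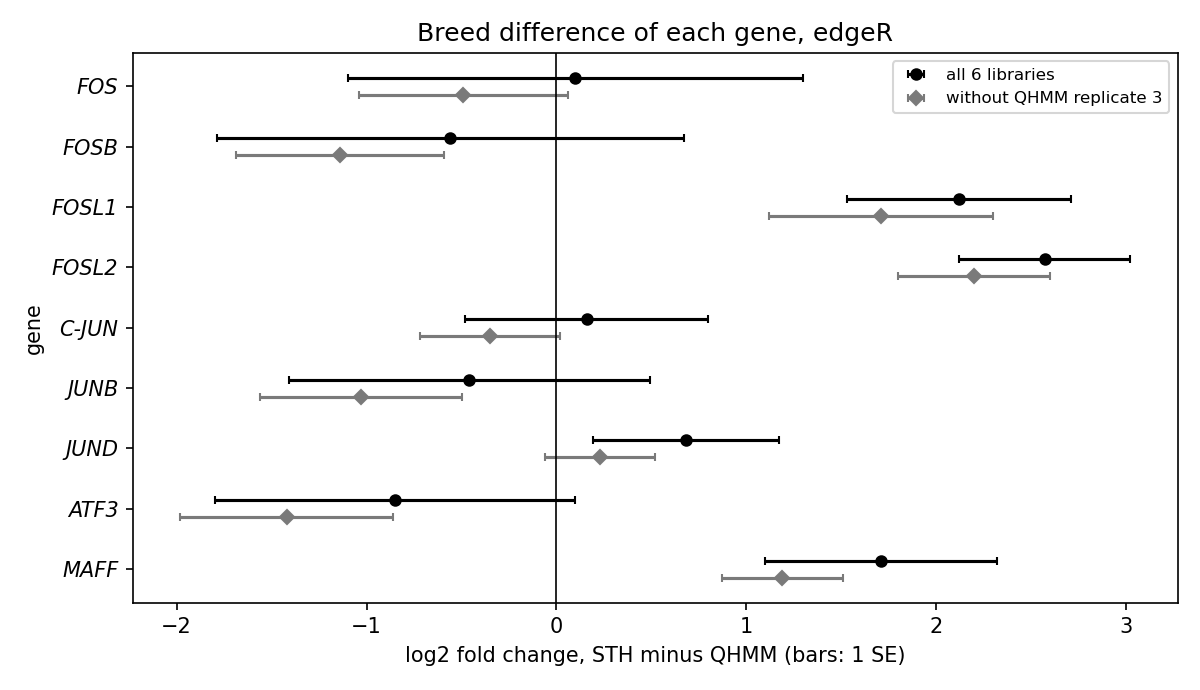
Log2 fold change (x axis, STH minus QHMM, bars of 1 SE, edgeR) of the 9 genes with all 6 libraries (black circles) and without QHMM replicate 3 (grey diamonds). FOSL2 keeps 2.57 and 2.20, while FOS goes from 0.10 to -0.49 and C-JUN from 0.16 to -0.35.

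Levels of different genes were compared per length, in RPKM. By mean RPKM over the 6 libraries, FOS came first with 719 and C-JUN second with 464. JUND had 168, FOSB 120, ATF3 114 and JUNB 77.2. MAFF had 32.1, FOSL2 21.9 and FOSL1 1.65. The range over libraries overlapped between all neighbours in this order, although within libraries C-JUN was above JUND, ATF3 above JUNB and FOSL2 above FOSL1 in all 6. FOS was above C-JUN in 4 of 6 libraries. FOS ranked 112 of 23119 genes by mean RPKM, although it had 2.7 RPKM in QHMM replicate 3. The order depended on the gene lengths behind the RPKM values: the length implied for JUND was 297 bases, and JUND was seventh by mean normalized count. For 6 of the 9 genes the implied length was a multiple of 3, against 42.1% of 13822 genes. Whether the implied lengths are coding lengths was not tested.

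The make-up of the FOS family stood apart most in QHMM replicate 3. FOS held 82.8%, 80% and 48.9% of the summed RPKM of the family in the QHMM libraries and 87.2%, 79.8% and 80.6% in the STH libraries. FOSL2 held 0.605%, 0.721% and 47.6% in the QHMM libraries and 1.72%, 12.1% and 4.92% in the STH libraries. FOS and FOSL2 were thus almost level in QHMM replicate 3 by RPKM, with a ratio of FOS to FOSL2 of 1.03, while by normalized counts, without scaling by length, FOSL2 held 55.1% and FOS 43.7% there. It was 50.6, 6.6 and 16.4 in the STH libraries, and 137 and 111 in the other QHMM libraries. The mean FOSL2 share was 10.1 percentage points lower in STH than in QHMM with all libraries (difference -10.1), and 5.58 points higher without QHMM replicate 3.

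The JUN family kept a steadier make-up than the FOS family with QHMM replicate 3 counted. Without that library the comparison depended on the unit. By RPKM, FOS then ranged from 79.8% to 87.2% and FOSL2 from 0.605% to 12.1% of their family. C-JUN ranged from 61.6% to 69% and JUND from 17.3% to 31.2% of theirs. By normalized counts, FOS then ranged from 80.7% to 92.7% and FOSL2 from 0.864% to 15.8%. The narrower ranges there were those of C-JUN, 72.4% to 80%, and JUND, 6.04% to 12.4%. C-JUN held 65.7%, 69% and 64.6% of the summed RPKM of the JUN family in the QHMM libraries and 67.4%, 62.4% and 61.6% in the STH libraries. JUNB ranged from 2.46% in QHMM replicate 3 to 16.9% in QHMM replicate 1, and JUND from 17.3% to 33% in the same libraries in reverse. These shares depend on the lengths behind the RPKM values, and by normalized counts C-JUN held 72.4% to 82.9%, JUNB 3.66% to 21.6% and JUND 6.04% to 13.4% of the family. An exact permutation test of the shares between breeds could not have passed, since 3 animals against 3 allow no p below 0.1, and its outcome is not used here.

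**Figure D3:**
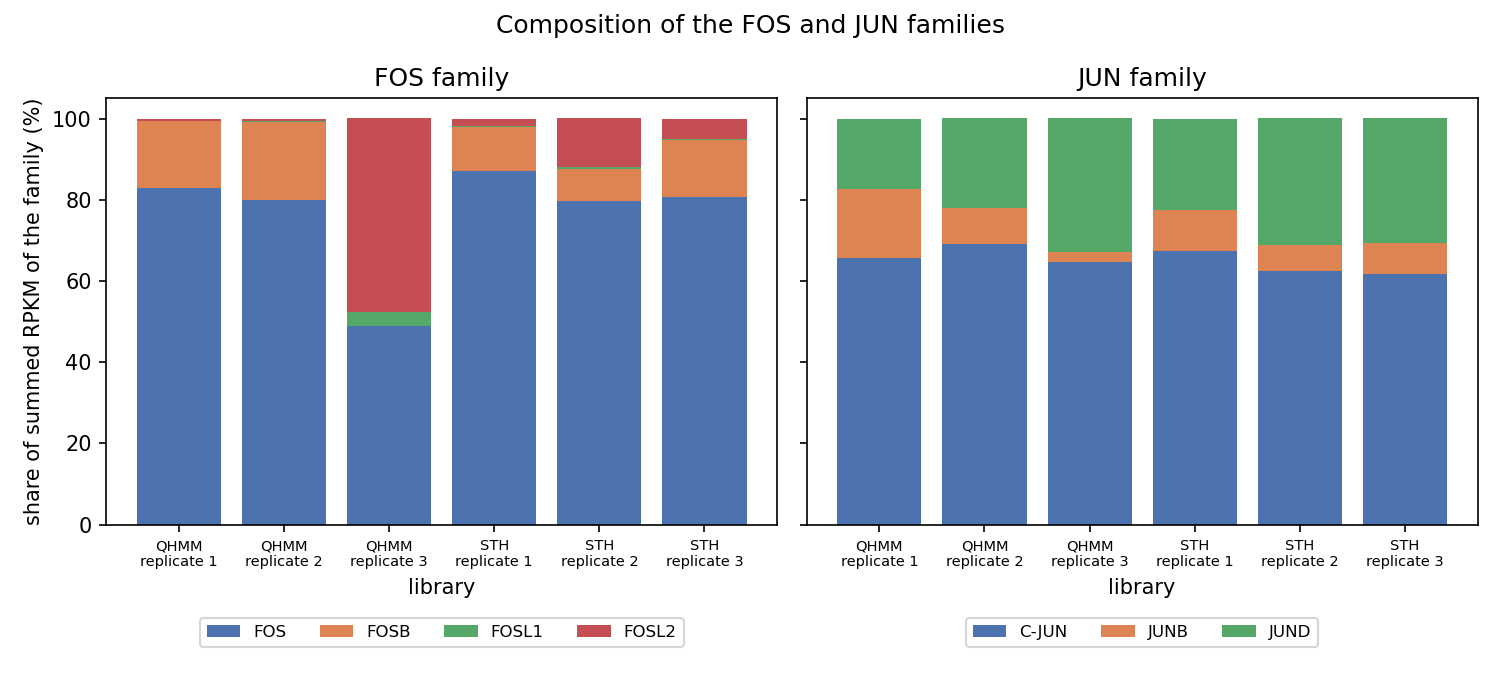
Share of each gene (y axis, percent) in the summed RPKM of the FOS family (left) and the JUN family (right) in each library. FOSL2 holds 47.6% of the FOS family in QHMM replicate 3 and at most 12.1% in any other library, while C-JUN holds 61.6% to 69% of the JUN family.

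The members differed in how closely their profiles over the 6 libraries followed each other, measured as the root-mean-square distance between mean-centred log2 CPM values. JUNB and ATF3 were the closest pair at 0.273, followed by C-JUN and JUND at 0.378. FOS and FOSB were 0.639 apart, and FOSL2 and MAFF 0.653. FOSB and FOSL2, both of the FOS family, were the farthest apart at 3.05. FOSB had no read in QHMM replicate 3, so its distances and that rank depend on the constant added before taking logs. Among pairs without FOSB, FOS and FOSL2 were the farthest apart at 2.46. All these distances are descriptions, and members share the same libraries.

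Among 12497 tested genes outside the group, those nearest to FOSL2 were HMOX1 (distance 0.306), CDKN1A (0.359) and FOXO1 (0.367). HMOX1 encodes heme oxygenase, CDKN1A a cell cycle inhibitor and FOXO1 a factor of the fasting response. FOXO1 had normalized counts of 264, 215 and 135 in the QHMM libraries and 962, 2385 and 1846 in the STH libraries. Like FOSL2, by whose profile it was chosen, it was highest in STH replicate 2 and lowest in QHMM replicate 3. The nearest genes to FOSL1 were FABP5 (0.381), STC1 (0.402) and DCTD (0.411). The nearest to MAFF were SIK1 (0.341), APOLD1 (0.506) and the gene listed as LOC100037673 and paired with CYR61 (0.516). SIK1, a kinase gene, had normalized counts of 469, 334 and 32.5 in the QHMM libraries and 981, 880 and 1220 in the STH libraries.

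Most other immediate-early genes were also low in QHMM replicate 3. Of 16 such genes, all tested, QHMM replicate 3 was the lowest library for 14 and more than 4-fold below the other QHMM libraries for 12. Their summed normalized count was 58393, 35027 and 3309 in the QHMM libraries and 41621, 26583 and 35787 in the STH libraries. DUSP1, a phosphatase gene that restrains the kinases upstream of AP-1, was the most abundant, with 8117, 9060 and 847 normalized counts in the QHMM libraries and 9178, 8026 and 10465 in the STH libraries. EdgeR called 0 of the 16 between breeds, with 1 higher (KLF6) and 1 lower (IER3) at an unadjusted p below 0.05. DESeq2 called 0 higher and 1 lower (IER3), and limma on log2(RPKM + 1) called 0. The median log2 fold change was 0.26, and -0.28 without QHMM replicate 3.

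The kinases and factors upstream of AP-1 did not show the low value of QHMM replicate 3. Of 20 genes of the ERK, JNK and p38 cascades with SRF and the ELK factors, 19 were tested, QHMM replicate 3 was the lowest library for 2, and 0 were more than 4-fold below. MAP2K2, the most abundant, had 2316, 2720 and 2298 normalized counts in the QHMM libraries and 1874, 2015 and 3109 in the STH libraries. EdgeR called 0 (1 higher, MAP2K3, and 0 lower at an unadjusted p below 0.05), as did DESeq2 and limma. The median log2 fold change was -0.07, against 0.02 over all tested genes.

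Of 12 other bZIP genes whose proteins can pair with AP-1 proteins or bind related sites, 10 were tested and edgeR called 0, as did DESeq2 and limma. At an unadjusted p below 0.05 there were 0 higher and 1 lower (BATF3), and the median log2 fold change was 0.18. ATF4, a translation-stress factor, was the most abundant, with 10288, 13823 and 14013 normalized counts in the QHMM libraries. In the STH libraries ATF4 had 8848, 16462 and 22688. Its lowest value was in STH replicate 1, unlike that of any AP-1 member.

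Of 10 genes reported from the list of MAF and cap-n-collar genes with KEAP1, the inhibitor of NFE2L2, 7 were tested. EdgeR called 0, with 1 higher and 1 lower at an unadjusted p below 0.05, while DESeq2 called 1 higher (BACH1) and 1 lower (the row paired with MAF) and limma 0. NFE2L1 was the most abundant of these genes, with 4713, 8809 and 8023 normalized counts in the QHMM libraries and 8363, 12800 and 10874 in the STH libraries. MAFG, the other small MAF with a row, had 70.5, 64.4 and 71.1 normalized counts in the QHMM libraries and 75.1, 135 and 89.6 in the STH libraries. The STH libraries of MAFG were above those of QHMM by a narrow margin, and QHMM replicate 3 was not low (log2 fold change 0.53, SE 0.29, edgeR FDR 0.345). BACH1 had 92, 117 and 126 in the QHMM libraries and 174, 329 and 197 in the STH libraries, without overlap (log2 fold change 1.06, SE 0.29, edgeR FDR 0.0762, between 0.0262 and 0.259 over the settings tried). The row paired with MAF had 337, 303 and 156 in the QHMM libraries and 129, 49.1 and 85.1 in the STH libraries, also without overlap but lower in STH (log2 fold change -1.59, SE 0.38, edgeR FDR 0.0506, between 0.00134 and 0.184 over the settings tried). It was called lower without QHMM replicate 3 (-1.86, edgeR FDR 0.0471) and without STH replicate 1 (edgeR FDR 0.0253). MAFG and BACH1, like the genes named only for an unadjusted p or a DESeq2 call, were singled out after their values were seen.

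Among the textbook targets of small MAF and cap-n-collar factors, 11 of 12 were tested and 1, HMOX1, was called higher in STH. HMOX1 had normalized counts of 194, 116 and 74.1 in the QHMM libraries and 763, 1584 and 1143 in the STH libraries. All STH animals were well above all QHMM animals, with STH replicate 2 the highest and QHMM replicate 3 the lowest, as for FOSL2. HMOX1 was the nearest gene to FOSL2 by profile, so this likeness is no separate result. Its log2 fold change was 3.18 (SE 0.39, edgeR FDR 0.0045), and 2.91 (edgeR FDR 0.0155) without QHMM replicate 3, with FDR values of 2.8e-15 to 0.0254 over the settings tried. FTH1, the ferritin heavy chain gene, was the most abundant of the list with a mean of 3765 RPKM, and had a log2 fold change of 0.86 (SE 0.25, edgeR FDR 0.0877, between 0.0106 and 0.264 over the settings tried), with all STH libraries above all QHMM libraries. At an unadjusted p below 0.05 there were 2 higher (HMOX1 and FTH1) and 1 lower (NQO1), and DESeq2 called those 2 higher and 1 lower. Limma called 2 higher (HMOX1 and FTH1) and 0 lower, as edgeR called 0 lower, and the median of the list was 0.29.

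Of 13 textbook AP-1 targets, which include FOSL1, 7 were tested, and MMP13 had no read in any library. EdgeR called 0, with 1 higher and 2 lower at an unadjusted p below 0.05, while DESeq2 called 1 higher (FOSL1) and 2 lower (VEGFA and CCND1) and limma 0. VEGFA, a growth factor gene of blood vessels, was the most abundant, with 2233, 1859 and 809 normalized counts in the QHMM libraries and 1198, 514 and 460 in the STH libraries. The breeds overlapped through QHMM replicate 3 and STH replicate 1. The median log2 fold change of these targets was -0.11, and -0.40 without QHMM replicate 3.

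Markers of other cell types were read beside these values. Of 5 adipocyte markers, 4 were called lower in STH, with a median log2 fold change of -2.37. Those called were LEP (-4.21, SE 0.90, edgeR FDR 0.0341), CIDEC (-2.44, SE 0.56, edgeR FDR 0.0438), PLIN1 (-2.37, SE 0.43, edgeR FDR 0.0186) and ADIPOQ (-2.13, SE 0.36, edgeR FDR 0.0143). Without QHMM replicate 3, 2 of them were called, while LEP was at -4.45 (edgeR FDR 0.0631) and CIDEC at -2.73 (edgeR FDR 0.0578). The call of LEP was lost, too, on leaving out QHMM replicate 1 (-3.23) or replicates 2 (-3.73) or 3 (-3.99) of STH. For CIDEC this held for QHMM replicate 1 (-1.35) and for each STH library (-2.29 to -2.61), and for PLIN1 for STH replicate 2 (-2.17). Over the settings tried, the FDR reached 0.238 for LEP, 0.233 for CIDEC, 0.133 for PLIN1 and 0.127 for ADIPOQ. The adipocyte markers summed to 4987, 1491 and 2179 normalized counts in the QHMM libraries and to 1033, 748 and 669 in the STH libraries. FABP4, the most abundant of them by RPKM, had a log2 fold change of -0.04 (SE 0.61, edgeR FDR 0.98), with overlapping breeds. It ran from -0.80 without STH replicate 1 to 1.09 without QHMM replicate 1 when single libraries were left out. None of the adipocyte markers was at 0 in all libraries. The 4 called adipocyte markers, but not FABP4, thus moved between breeds in the direction opposite to FOSL2, and the summed markers were highest in QHMM replicate 1, where the AP-1 members were highest in that breed. Their part in the differences of FOSL2 and of the other members was not tested.

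Of 6 fibroblast markers, with DCN the most abundant and none at 0, edgeR called 0, with 3 lower in STH at an unadjusted p below 0.05, while DESeq2 called 3 lower (COL1A1 and the rows paired with COL1A2 and COL3A1) and limma 0. They summed to 40875, 29294 and 50033 normalized counts in the QHMM libraries and to 21402, 10214 and 22796 in the STH libraries, with a median log2 fold change of -1.06. QHMM replicate 3, the lowest library for the AP-1 members, was thus the highest for the sum of fibroblast markers and for each of them but LUM (1475 normalized counts in QHMM replicate 1, 844 in STH replicate 1 and 716 in QHMM replicate 3), and a part of this in the member values was not tested. Of 4 satellite cell markers, 3 were tested and CDH15, the most abundant, was called higher in STH (log2 fold change 1.12, SE 0.26, edgeR FDR 0.0448, between 0.00797 and 0.144 over the settings tried). Leaving out any QHMM library lost the call, at log2 fold changes of 1.05, 1.20 and 1.11 for QHMM replicates 1, 2 and 3. So did leaving out STH replicate 2 (edgeR FDR 0.134) or replicate 3 (1.01, edgeR FDR 0.0968), but not STH replicate 1. PAX7 of the same list, singled out after its values were seen, went the other way at -1.43 (SE 0.70, edgeR FDR 0.294) with overlapping breeds. Its value ran from -2.05 without STH replicate 1 to -0.61 without QHMM replicate 1 when single libraries were left out. The satellite cell markers summed to 222, 163 and 180 in the QHMM libraries and 281, 334 and 339 in the STH libraries, with none at 0 and a median of -0.01. Their part in the FOSL2 difference was not tested.

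The summed endothelial, leukocyte, muscle fibre and erythrocyte markers of QHMM replicate 3 lay within the range of the other 5 libraries. Endothelial markers, with 5 of 6 in the table and PECAM1 the most abundant, summed to 8085, 7853 and 7946 normalized counts in the QHMM libraries and to 9694, 8554 and 8383 in the STH libraries, and the row paired with CLDN5 was at 0. Leukocyte markers, with 5 of 6 in the table and CD14 the most abundant, summed to 1314, 1124 and 965 in the QHMM libraries and to 1279, 847 and 752 in the STH libraries. Muscle fibre markers summed to 2217557, 2984649 and 2192387 in the QHMM libraries and to 1450430, 1980063 and 3072809 in the STH libraries. EdgeR called 0 of the 4 endothelial, 5 leukocyte and 6 muscle fibre markers tested, with medians of 0.10, -0.24 and -0.33. At an unadjusted p below 0.05 there were 2 muscle fibre markers lower and 0 of the others, and DESeq2 and limma each called 1 muscle fibre marker lower (the row paired with MB) and 0 of the others. Of the erythrocyte markers, 4 of 5 had a row and 1 was tested, the HBA1 row, which was the most abundant (log2 fold change -0.11, edgeR FDR 0.922), and SLC4A1 was at 0. The erythrocyte markers summed to 58, 18.7 and 46.7 in the QHMM libraries and to 65.2, 53.4 and 25.8 in the STH libraries.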

How the data were processed

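The authors sequenced poly(A) RNA of 6 longissimus muscle samples on an Ion Proton instrument, mapped filtered reads to the sheep genome (Oar 3.1) and deposited raw counts of uniquely mapped reads per gene. The aligner and counting program are not given in the sources used here. They also deposited RPKM values. These were checked and equal the counts scaled by a fixed length per gene and the library total, with a relative spread of at most 5.73e-06 over 13822 genes. All 12 per-sample columns were used (0 left out). In joining the tables, 25 gene names were left out of RPKM comparisons, which left 23119.

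Counts were tested in R 4.3.3 with edgeR 4.0.16 (TMM, filterByExpr, glmQLFit, glmQLFTest, breed as the only term) over 12506 genes with Benjamini-Hochberg adjustment. The SE was obtained from the log2 fold change and the F statistic. Alternatives used DESeq2 1.42.0, limma-trend (limma 3.58.1) on log2 RPKM, other normalization and filters, robust dispersions, a block for the replicate number, each library left out and calls by FDR alone. Shares, their exact permutation tests and distances were computed with Python 3.11.15, NumPy 2.4.6, SciPy 1.17.1 and pandas 2.3.3, and plots drawn with matplotlib 3.10.9. The edgeR test was tried on simulated data.

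The text names the members, the called genes of each list (at most 5) and its most abundant gene by RPKM, markers at 0, and the 3 nearest genes for the 3 members with the largest absolute log2 fold change. Members and lists were chosen with earlier results of these data known. No 2 replicates of a breed agreed within counting noise (chi-square per degree of freedom 47.8 to 71.1), as a library deposited more than once would. Strand use in counting is not given in the sources used here, so reads of overlapping genes cannot be told apart. One gene of the list of MAF and cap-n-collar partners, and the list's median, are not reported here.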

Additional observations from a re-analysis of the deposited data

How the results depend on the processing

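Against 432 genes called (203 higher, 229 lower in STH) and 1 member called, the counts of all genes were 806 (366, 440) without a filter on low counts, 973 (418, 555) with DESeq2 and 78 (54, 24) with limma-trend on log2(RPKM + 1) of every gene above 0, and members called were 2, 2 and 0. Limma-trend on filtered genes called 134 lower with a pseudocount of 1 and 125 with 0.1. The share of calls that were higher was 47% in edgeR and 61.3%, 61.9% and 69.2% in the 3 limma fits, where the median log2 fold change of all genes was 0.12, 0.14 and 0.04 against 0.02. Leaving out each library gave 131 to 535 calls, 50 to 283 higher, 81 to 252 lower, and 0 to 1 members, with 0 without QHMM replicate 2. FOSL2 also lost its call in limma of every gene above 0 (FDR 0.0601). Log2 fold changes of FOSB, JUNB and ATF3 turned to 0.10, 0.43 and 0.11 with the replicate block, to 1.35, 0.90 and 0.56 in limma with a pseudocount of 1 under either filter, and to 2.45, 1.02 and 0.62 with 0.1. The cause was not tested. Over the fits that left out 1 library, the log2 fold change ran from -0.59 to 1.28 for FOS, -1.14 to 0.45 for FOSB, -0.35 to 0.93 for C-JUN, -1.03 to 1.12 for JUNB and -1.42 to 0.94 for ATF3. The family share difference ran from -6.96 to 2.63 for FOSB, -1.48 to 0.266 for FOSL1, -17.9 to 5.58 for FOSL2 and -4.76 to 2.48 for JUNB. Of 132 member values under another setting, 109 kept direction and call status, 19 reversed, 2 gained and 2 lost the call. At least 10 counts in every library gave values for 6 members. The replicate block called 457 genes (201 higher, 256 lower). The sample labels do not say that replicate numbers pair the animals. Deviations of same-numbered libraries from their breed means correlated at 0.226, -0.038 and -0.13. Those of other pairs correlated at -0.263 to 0.287. With 3 libraries per breed such deviations are bound to balance out, so these values cannot decide whether same-numbered libraries are paired. FOSL1 had 2 to 46 reads per library, and was called by DESeq2 (FDR 0.0243) and by edgeR without the filter (FDR 0.0424).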
